A study of Mus musculus with 6 samples.

Results

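The genes described here are Srebf2, the transcription factor that drives cholesterol synthesis, and 7 genes that it is known to control: the synthesis enzymes Hmgcs1, Idi1, Sqle, Lss, Cyp51 and Dhcr7 and the regulator Insig1. They were taken by symbol from the deposited table of read counts, where all 8 were found among 34590 gene symbols, and 7 passed the filter on low counts that kept 17345 genes for testing. The 8 genes hold no cholesterol uptake gene, so uptake was examined with a separate list.

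RNA-seq had been performed on inguinal mammary glands (gland number 4) of 3 WT host mice whose fat pads had been surgically cleared of their own epithelium. Each host received a WT.EGFP+ graft in the left gland and an Adamts18-/-.EGFP+ graft in the right gland, which gives 3 WT and 3 Adamts18-/- libraries, paired by host, all of them from EGFP-marked grafts in a WT stroma. Adamts18 encodes a secreted protease, the deletion was carried by the grafted epithelium alone, and the EGFP transgene is driven by an actin promoter that is active in most cell types. The Adamts18-/- and EGFP lines were kept on a C57BL/6JOlaHsd background, and the paper's methods tie no strain to the WT hosts of these grafts. Contralateral grafts of this kind were placed in 3-week-old WT females, but neither this age nor that of the donors is tied to these libraries in the sources used here. Since WT grafts were always placed left, genotype and body side cannot be told apart. The question asked of the pairs was which transcripts differed when the epithelium lacked Adamts18.

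Cholesterol is built from acetyl-CoA through mevalonate, isoprenoids, squalene and lanosterol. When membrane cholesterol is low, the SREBP2 protein is escorted from the endoplasmic reticulum to the Golgi, cleaved there and sent to the nucleus, where it binds sterol regulatory elements, commonly beside NF-Y and Sp1 sites, in the promoters of nearly every enzyme of the pathway. INSIG1 holds the SREBP2 escort complex in the endoplasmic reticulum when sterols are plentiful and is itself a target, which closes a feedback loop. Mammary epithelium uses the pathway for membranes and milk fat, and adipocytes of the fat pad store much of the body's free cholesterol.

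To show what these control regions look like, the bases before the start of transcription are given for 3 members, from the RefSeq promoter table (GRCm38.p6, plus strand). Hmgcs1 is shown because it held the only exact match to the sterol regulatory element consensus. Insig1 is shown because it held an E-box, and Lss because its level came closest to the mean pattern of the group. Capitals mark matches to TCACNCCAC (sterol regulatory element), CACGTG (E-box, also bound by SREBP proteins) and CCAAT (NF-Y, ATTGG when read on the opposite strand).
Hmgcs1, chr13:119690101-119690350: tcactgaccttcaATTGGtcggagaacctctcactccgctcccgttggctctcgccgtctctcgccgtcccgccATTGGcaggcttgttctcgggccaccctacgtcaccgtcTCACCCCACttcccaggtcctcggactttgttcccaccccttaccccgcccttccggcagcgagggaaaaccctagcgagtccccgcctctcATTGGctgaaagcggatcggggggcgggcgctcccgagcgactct
Insig1, chr5:28071162-28071362: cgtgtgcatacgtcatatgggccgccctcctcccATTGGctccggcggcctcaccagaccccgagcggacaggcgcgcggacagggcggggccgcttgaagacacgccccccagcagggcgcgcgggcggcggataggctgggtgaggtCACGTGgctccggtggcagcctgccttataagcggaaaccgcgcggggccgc
Lss, chr10:76531355-76531587: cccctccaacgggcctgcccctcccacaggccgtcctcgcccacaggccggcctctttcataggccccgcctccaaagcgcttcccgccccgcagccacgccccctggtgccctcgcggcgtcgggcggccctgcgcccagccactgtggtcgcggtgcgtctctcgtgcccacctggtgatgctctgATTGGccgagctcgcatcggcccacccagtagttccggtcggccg
The 3 regions differ in which of these motifs they hold, while all hold CCAAT. Of the 8 members, 7 had at least 1 window of 300 bases in the table (250 before the start and 50 after), and Sqle had none. A gene was counted if any of its windows held a match. Dhcr7 had 3 windows, with CACGTG only in the second and CCAAT only in the third. Its first window, which spans the annotated gene start, held neither. TCACNCCAC, searched on both strands, was found in 1 of the 7 (Hmgcs1, from 137 to 129 bases before the start), against 1.49% of 16362 genes with a window. CACGTG was found in 2 of 7, Insig1 and Dhcr7 (9.11% of genes), CCAAT in 7 of 7 (42.1% of genes) and GGGCGG, an Sp1 motif, in 7 of 7 (49.7% of genes and 64.2% of the tested genes with a window). These are matches of letters and not shown binding sites. Only exact matches within the windows were searched, so a gene without one is not shown to lack such an element.

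The libraries held between 53875123 and 71595924 counts, so that the limit set by a count of 0 (3 counts) was 0.0430 to 0.0574 CPM (library-scaled counts, with edgeR's TMM factors), which covers counting error only. Adamts18 itself, counted over the gene as a whole, gave 6.78 ± 3.15 CPM on the WT side and 3.64 ± 1.10 CPM on the mutant side (SD, n = 3 glands each). The sample labels describe sorted GFP-positive epithelial cells, but 9 adipocyte genes such as Adipoq and Plin1 summed to 8351 to 20522 CPM and 14 epithelial genes such as Epcam and Krt8 to 866 to 1752 CPM, with the adipocyte sum above the epithelial sum in each of the 6 libraries. The libraries are therefore called glands below. All 14 epithelial genes had negative fitted genotype differences (median log2 fold change -0.38) and 5 passed the study's thresholds, whereas 0 of 9 adipocyte genes did. The 2 glands of mouse 3 stood apart. Their adipocyte sums were the lowest, at 10684 CPM in WT and 8351 CPM in Adamts18-/-, and 3 B cell genes summed to 85.9 and 410 CPM there, against 5.71 to 8.66 CPM in the other 4 libraries. In such mixed tissue, fewer cells of a type and less RNA per cell cannot be told apart.

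The members were expressed over a wide range. Per kilobase of the principal transcript (GENCODE M21 annotation), Insig1 was highest, at 51.4 ± 17.9 CPM per kb in WT glands (SD, n = 3), and Srebf2 followed at 18.2 ± 1.67. Sqle stood at 7.91 ± 1.6, Lss at 7.25 ± 1.53, Dhcr7 at 6.55 ± 1.6 and Cyp51 at 5.0 ± 1.41 CPM per kb. The ranges of these last 4 genes overlapped, while Insig1, Srebf2, the group of 4 enzymes and Idi1 occupied ranges that did not overlap. Idi1 was lowest, at 1.23 ± 0.0235 CPM per kb (SD, n = 3). In Adamts18-/- glands, Insig1 (48.3 ± 9.67 CPM per kb), Srebf2 (18.2 ± 5.25) and Idi1 (1.33 ± 0.109) kept the same places (SD, n = 3 each), and Dhcr7 (6.97 ± 2.54) and Lss (6.96 ± 1.31) stood above Sqle (6.57 ± 1.16), within the spread.

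Srebf2 lies on chromosome 15 of GRCm38, from 82147181 to 82205379 on the plus strand, with 19 exons in its principal transcript. In mice 1, 2 and 3 it was at 83.8, 101 and 92.0 CPM in the WT gland and at 66.7, 90.6 and 120 CPM in the Adamts18-/- gland. The Adamts18-/- glands thus held both the lowest and the highest value, and the groups overlapped. The log2 fold change (Adamts18-/- over WT) of Srebf2 was -0.03 (standard error 0.15; unadjusted p = 0.838, adjusted p = 0.991, edgeR's quasi-likelihood test, Benjamini-Hochberg), and the 3 hosts gave -0.33, -0.15 and 0.38. Only mouse 3 had the higher value on the mutant side, and without mouse 3 the log2 fold change was -0.23 (unadjusted p = 0.0356, adjusted p = 0.674, same test).

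**Figure D1:**
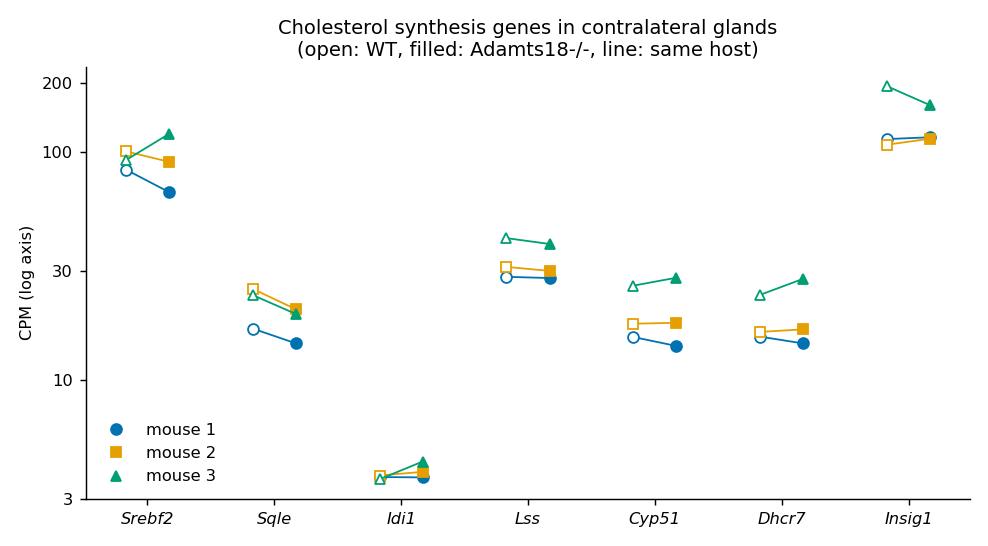
CPM (log axis) of the 7 tested genes in the 6 glands, with open symbols for WT, filled symbols for Adamts18-/- and a line joining the glands of 1 host. For Lss, Cyp51, Dhcr7 and Insig1 both glands of mouse 3 (triangles) lie above the other 4, and Sqle is lower on the mutant side of each of its 3 lines.

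Insig1, the sterol-regulated brake on SREBP processing (chromosome 5, 28071363 to 28078662, plus strand), was at 114, 108 and 194 CPM on the WT side of mice 1, 2 and 3. The contralateral Adamts18-/- glands held 116, 114 and 160 CPM. Mice 1 and 2 thus had nearly equal glands, and mouse 3 had the highest values on both sides. The log2 fold change of Insig1 was -0.05 (standard error 0.099, unadjusted p = 0.607, edgeR's quasi-likelihood test), and the 3 hosts gave 0.03, 0.09 and -0.28.

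Hmgcs1 encodes the cytosolic synthase that makes HMG-CoA, the first precursor of the mevalonate branch (chromosome 13, 119690379 to 119708260, plus strand). It was listed at 0 in all 6 libraries and could not be tested. Of 19227 protein-coding symbols of the annotation found in the table, 2993 (15.6%) were listed at 0 in all 6 libraries, among them Brox and Aida, named after their values were seen. Idi1, which isomerizes isopentenyl diphosphate into the second isoprenoid building block (chromosome 13, 8885501 to 8892451, plus strand), was at 3.74, 3.80 and 3.66 CPM in WT glands and at 3.73, 3.94 and 4.38 CPM in Adamts18-/- glands of mice 1, 2 and 3. The WT glands varied little, and the highest value was the mutant gland of mouse 3. With 195 to 269 reads per library, the log2 fold change of Idi1 was 0.10 (standard error 0.15, unadjusted p = 0.530, edgeR's quasi-likelihood test).

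Sqle encodes squalene epoxidase, the enzyme that oxidizes squalene before it is closed into a ring and a rate-limiting step of the pathway (chromosome 15, 59315077 to 59331192, plus strand). It was at 16.8, 25.1 and 23.6 CPM on the WT side of mice 1, 2 and 3, and at 14.5, 20.4 and 19.5 CPM in their Adamts18-/- glands. In each host the mutant side held less, although the groups overlapped because mouse 1 was low on both sides. The log2 fold change of Sqle was -0.26 (standard error 0.081), or a fold change of 0.833 with a 95% interval from 0.719 to 0.966, and -0.22, -0.30 and -0.28 in the 3 hosts. Its unadjusted p was 0.0251 and its adjusted p 0.987 (edgeR's quasi-likelihood test, Benjamini-Hochberg), and 3.86% of all tested genes had an unadjusted p under 0.05. The fold change was above the study's limit of 0.8, so Sqle was not counted as lower. Its p moved to 0.106, 0.110 and 0.050 without mice 1, 2 and 3 and to 0.246 without the mouse as a block. The 14 epithelial genes were also lower on the mutant side in mice 2 and 3 (summed log2 differences of -0.73 and -0.50) and nearly level in mouse 1 (-0.019). Summed myoepithelial genes (7 genes, 6 of them called lower) were lower on the mutant side in all 3 hosts, by log2 differences of -0.31, -0.51 and -0.64. The sum of 5 hormone-sensing luminal genes was lower too (-0.20, -0.43 and -0.62), with 3, 3 and 4 of the 5 genes lower in mice 1, 2 and 3. Among them Areg had a positive fitted log2 fold change (0.61) and Esr1 was nearly level (-0.02). Summed secretory luminal genes were higher on the mutant side in mouse 1 (0.14) and lower in mice 2 and 3 (-1.49 and -0.68). The part of these epithelial genes in the value of Sqle was not tested. With libraries scaled to the 14 epithelial genes first named, the log2 fold change of Sqle was 0.15 (unadjusted p = 0.614, edgeR's quasi-likelihood test), beside a median of 0.42 over all genes.

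Lss, lanosterol synthase, closes oxidized squalene into the first sterol (chromosome 10, 76531588 to 76557138, plus strand). It was at 28.3, 31.3 and 41.9 CPM on the WT side of mice 1, 2 and 3 and at 28, 30.1 and 39.5 CPM in their Adamts18-/- glands. The pairs were close to each other and the hosts lay apart. The log2 fold change of Lss was -0.05 (standard error 0.069, unadjusted p = 0.477, edgeR's quasi-likelihood test), lower in 3 of 3 hosts by small amounts (-0.02, -0.06 and -0.08), and its 95% interval as a fold change ran from 0.849 to 1.09.

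Cyp51, which removes a methyl group from lanosterol (chromosome 5, 4081145 to 4104746, minus strand), was at 15.4, 17.6 and 25.9 CPM in WT glands and 14.1, 17.8 and 28.1 CPM in Adamts18-/- glands of mice 1, 2 and 3. Its annotated ends share 166 bases with Akap9 on the opposite strand, and whether the counting used strand is not given in the sources used here. The fitted log2 fold change of Cyp51 was -0.000135 (standard error 0.091, unadjusted p = 0.999, edgeR's quasi-likelihood test), and the 95% interval of the fold change was 0.848 to 1.18. Dhcr7, the reductase of the final step of one branch (chromosome 7, 143823145 to 143848410, plus strand), was at 15.5, 16.2 and 23.6 CPM in WT and 14.4, 16.6 and 27.8 CPM in Adamts18-/- glands. Both genes kept the order mouse 1, mouse 2, mouse 3 on either side. The log2 fold change of Dhcr7 was 0.06 (standard error 0.10, unadjusted p = 0.600, edgeR's quasi-likelihood test), and the 3 hosts gave -0.10, 0.04 and 0.23.

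As a group, 0 of the 7 tested members were lower and 0 were higher in Adamts18-/- glands by the study's thresholds (unadjusted p under 0.05 and a fold change below 0.8 or above its reciprocal), which 1.84% and 1.17% of all tested genes passed downward and upward. No member (0 of 7) had an adjusted p under 0.05 by edgeR, and neither did any tested gene (0), although 1 member and 670 genes had an unadjusted p under 0.05. DESeq2 called 71 genes by adjusted p, with 0 members among them. The groups did not overlap for 0 of 7 members (2.63% of all genes were apart downward and 2.31% upward). The median log2 fold change of the members was -0.03, beside 0.00065 over all tested genes, and 5 of 7 were negative (49.8% of all genes). The median difference changed sign between hosts, at -0.10, 0.01 and 0.12 in mice 1, 2 and 3, where 6, 3 and 3 of the 7 members were lower on the mutant side. Sqle and Lss were lower in all 3 hosts, as were 12.7% of all genes, and 0 members were higher in all 3 (10.8% of all genes). Every 95% interval but that of Sqle spanned no difference. Idi1 and Srebf2 had the widest intervals, with fold changes from 0.816 to 1.41 and from 0.740 to 1.29, which reach past the study's limits. The intervals of Sqle (0.719 to 0.966) and Dhcr7 (0.863 to 1.26) also reached past a limit.

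**Figure D2:**
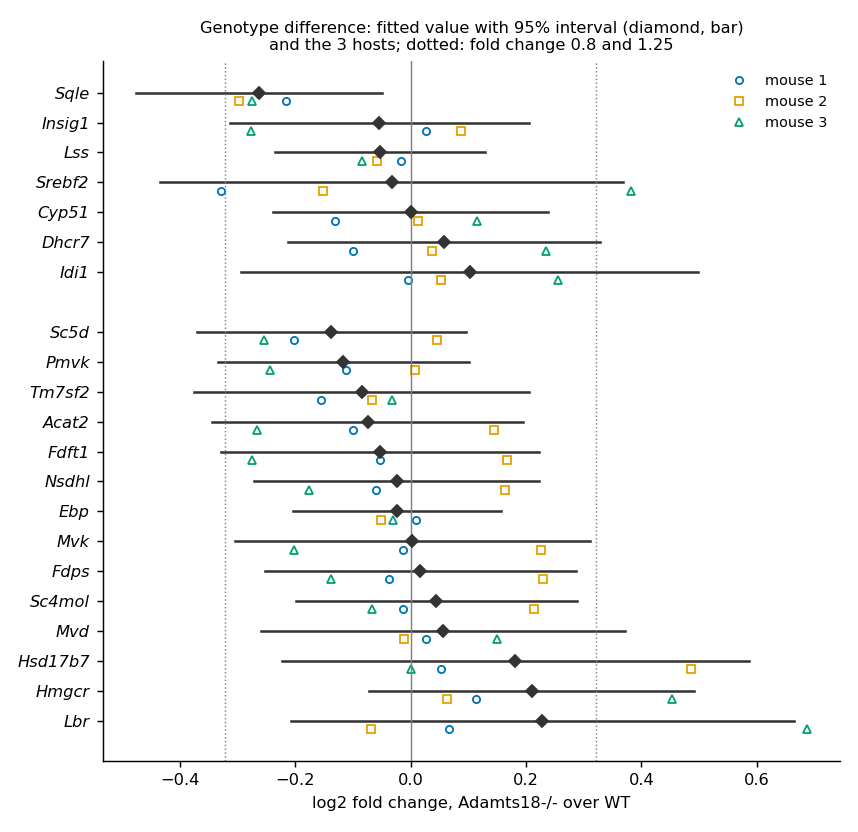
Fitted log2 fold change (Adamts18-/- over WT, diamonds) with its 95% interval (bars) for the 7 tested members and, below the gap, 14 further synthesis genes, with open symbols for the 3 hosts and dotted lines at a fold change of 0.8 and its reciprocal. Among the genes plotted, the interval of Sqle alone lies on one side of 0, and no diamond passes a dotted line.

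The other genes of the pathway, listed by role, gave the same counts. Of 15 further synthesis genes, 0 were called lower and 0 higher, with a median log2 fold change of -0.02. The highest value was that of Lbr, a sterol reductase of the nuclear envelope, at 0.23 (standard error 0.17).

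Uptake and transport genes were represented by 10 genes, of which 9 were tested. None (0 of 9) was called, and 0 had an unadjusted p under 0.05 (edgeR). Their log2 fold changes ran from -0.21 for Scarb1, the HDL receptor (standard error 0.094), to 0.22 for Stard4, a sterol carrier that is a target of SREBP2 (standard error 0.16), with a median of -0.02. Of 8 genes that control SREBP processing, 0 were called and 0 had an unadjusted p under 0.05 (edgeR), and the values lay between -0.09 for Srebf1, the sister factor of Srebf2 (standard error 0.12), and 0.09 for Rnf145, a ligase of the sterol sensing machinery (standard error 0.083).

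Most members differed more between hosts than between genotypes, where each host also stands for its donor and its experiment. The host mouse (2 terms, against 1 for genotype) took 98.3% of the variance of log2 CPM over the 6 glands for Lss, 98.1% for Cyp51, 95.4% for Dhcr7 and 92.9% for Insig1, and the genotype took at most 1.37% in these 4 genes. For Sqle the host took 76.2% and the genotype 23.4%. Idi1 was the exception, with 22.1% for the host, 35.1% for the genotype and 42.8% left over. These are shares of a small variance (SD of log2 CPM 0.094, against 0.25 to 0.40 in the other members). Srebf2 held 65.0% for the host and 34.6% left over. The median share of the host was 92.9% over the members and 67.3% over all tested genes.

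**Figure D3:**
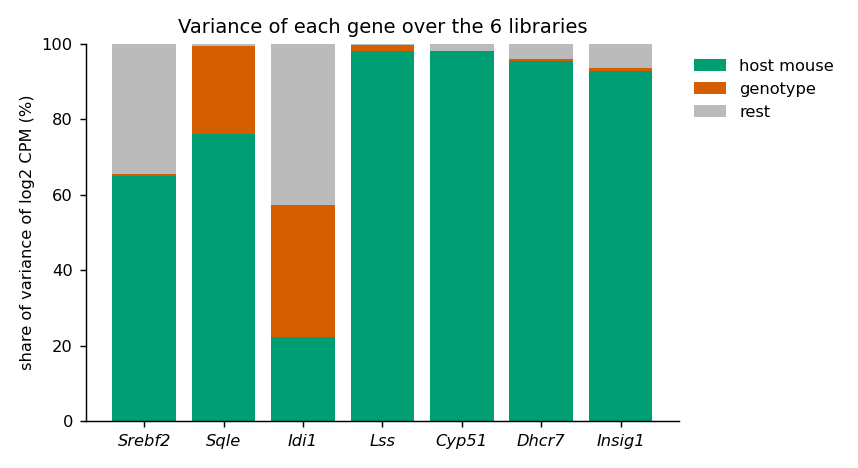
Share of the variance of log2 CPM over the 6 glands (%, stacked from 0) taken by the host mouse, the genotype and the rest, for each tested member. The host share includes donor and experiment. The host takes over 90% in Lss, Cyp51, Dhcr7 and Insig1, and the genotype is visible mainly in Sqle (23.4%) and Idi1 (35.1%). Bars do not show the size of the variance, which was smallest for Idi1 (SD of log2 CPM 0.094, against 0.25 to 0.40 in the other members).

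Both glands of mouse 3 lay above the other 4 libraries for 4 of 7 members (Lss, Cyp51, Dhcr7 and Insig1), as they did for 24.2% of all tested genes. Both glands of mouse 1 were the lowest for 5 of 7 (Srebf2, Sqle, Lss, Cyp51 and Dhcr7; 9.18% of all genes). Mouse 3 exceeded the mean of mice 1 and 2 by 1.67-fold for Cyp51, 1.63-fold for Dhcr7, 1.56-fold for Insig1 and 1.38-fold for Lss, and by 1.24-fold, 1.14-fold and 1.05-fold for Srebf2, Sqle and Idi1. In the test of the mouse terms, 5 of 7 members had an unadjusted p under 0.05, as did 27.2% of all genes. These 5 were Cyp51 (unadjusted p = 0.00185), Dhcr7 (unadjusted p = 0.00395), Lss (unadjusted p = 0.00420), Insig1 (unadjusted p = 0.00510) and Sqle (unadjusted p = 0.00759), by edgeR's quasi-likelihood test. Their adjusted p lay between 0.0595 and 0.0871 (Benjamini-Hochberg), so 0 of 7 passed after adjustment, against 0.628% of all genes. Without mouse 3, Sqle and Srebf2 were the 2 members with an unadjusted p under 0.05 (unadjusted p = 0.00251 and unadjusted p = 0.00729, edgeR), against 13.2% of all genes in that fit.

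The high values of mouse 3 were seen in part of the wider pathway, and they were not particular to it. Among 7 fatty acid synthesis genes, listed for comparison, both glands of mouse 3 were highest for 4. Their median log2 difference of mouse 3 from mice 1 and 2 was 0.63, beside 0.47 for the members. Both glands of mouse 1 were lowest for 2 of 15 further synthesis genes (9.18% of all tested genes). Both glands of mouse 3 were highest for 9 of the 15 (24.2% of all tested genes). These were led by Fdps (2.05-fold over the mean of mice 1 and 2), which makes farnesyl diphosphate. Mvd (2.04-fold) and Pmvk (1.80-fold), enzymes of mevalonate activation, followed, while Fdft1, the squalene synthase, was 0.770-fold. Fdps, Mvd, Pmvk and Fdft1 were named after their values were seen. Adipocyte genes were lower in mouse 3 (median log2 difference -1.18, 9 of 9 genes). Epithelial genes were higher there by the mean of both glands (median 0.38, 14 of 14 genes). However, both mouse 3 glands were highest for only 1 of the 14. The epithelial sum of the mutant gland of mouse 3 (1238 CPM) was below that of the WT gland of mouse 2 (1436 CPM). Genes of B cells, given above, and of T cells and proliferation were highest in mouse 3 glands. The 4 T cell genes summed to 76.9 and 192 CPM there in WT and Adamts18-/-, against 14.7 to 32.9 CPM in the other 4 libraries. The part of these marker genes in the host difference was not tested. With libraries scaled to the 14 epithelial genes, 0 of 7 members had an unadjusted p under 0.05 in the test of the mouse terms (edgeR), against 20.7% of all tested genes, and 1810 genes passed by adjusted p, against 109 with TMM scaling.

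**Figure D4:**
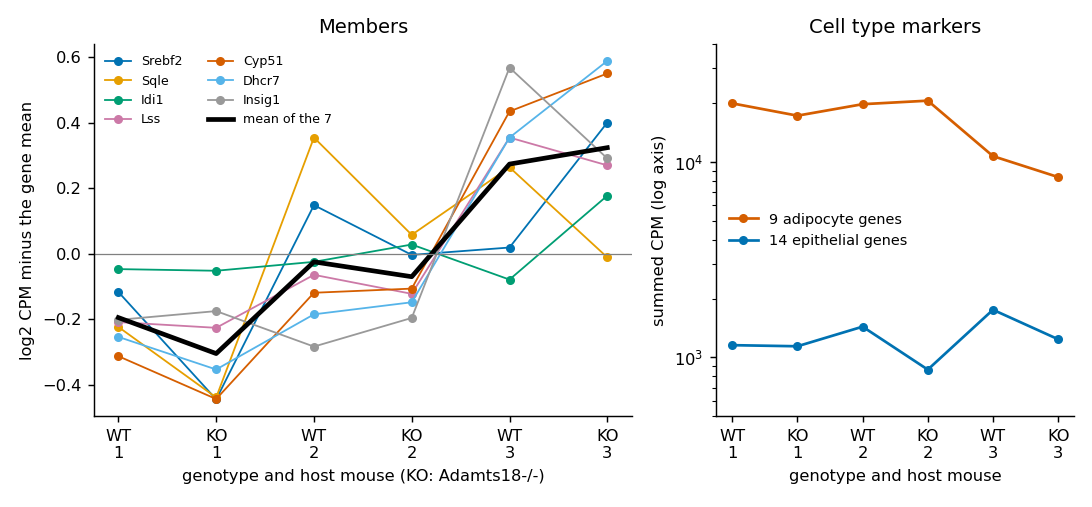
Left, log2 CPM minus each gene's mean for the 7 tested members and their mean (thick line) over the 6 glands ordered by host, with KO for Adamts18-/-. Right, summed CPM (log axis) of 9 adipocyte and 14 epithelial genes in the same glands; the mean of the members is highest in both glands of mouse 3, where the adipocyte sum is lowest.

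The members were also compared by the shape of their profile, as the root mean square difference of centered log2 CPM over the 6 libraries, a description of libraries that share hosts. The closest pair was Cyp51 and Dhcr7 (0.065 log2 units), followed by Lss and Insig1 (0.13), and the farthest was Sqle and Insig1 (0.35). The consecutive enzymes Sqle and Lss differed by 0.24. Among the 17345 tested genes, Lss was the fourth closest to the mean profile of the members, at 0.058, although Lss is itself part of that mean. The other tested members, also part of it, ranked from 605 (Dhcr7) to 3959 (Sqle). The listed synthesis, uptake and SREBP control genes ranked from 45 (Tm7sf2) to 13147 (Lipa). Outside the pathway lists, the 5 closest genes were Eme2 (0.037), Traf4 (0.057), Dtnb (0.058), Btbd19 (0.061) and Rpia (0.062).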

How the data were processed

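The deposited table holds unnormalized whole-number counts by gene symbol for 6 libraries, 1 column per gland. Per the submitters' processing notes, bcl2fastq 2.18, TopHat2 2.0.11, featureCounts 1.6.2, edgeR and the build mm9 were used; strand setting and annotation version are not given in the sources used here. Reads were single-end, 85 bp. Total counts were 53875123 to 71595924. The host pairing comes from the labels. Deviations of paired glands from their genotype means correlated (r across genes 0.512, 0.505 and 0.639). Those means include mouse 3, so r does not test the pairing of mice 1 and 2. By root mean square log2 difference, the WT glands of mice 1 and 2 (0.484) and their Adamts18-/- glands (0.461) were closer than the pairs of mouse 1 (0.543) and mouse 2 (0.531). The glands of mouse 3 were closest to each other (0.533). 

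The genotype was tested by edgeR 4.0.16 in R 4.3.3 (TMM, filterByExpr, quasi-likelihood, mouse as a block), with p-values adjusted over 17345 genes by the Benjamini-Hochberg method. Standard errors are the log2 fold change divided by the square root of F, and a prior count of 2 was used for log2 CPM. The median biological coefficient of variation was 16.3%. Genes were counted at the study's thresholds. Alternatives were no block, DESeq2 1.42.0, voom in limma 3.58.1, other scalings and filters, and each mouse left out. Scripts were tested on simulated data. Positions and lengths come from GENCODE M21 (GRCm38), not the authors' build. Members and gene lists were chosen with earlier results of these data known. Named beside the members are the extremes of each pathway list, any list gene past the thresholds (0 were) and the 5 genes closest in profile; 1 gene so chosen is not reported here.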

Additional observations from a re-analysis of the deposited data

How the results depend on the processing

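The counts of called members (0 lower, 0 higher) were 0 in each of the 11 alternatives. The largest move came from scaling to the 14 epithelial genes, which shifted the median of all genes by 0.42 (34 genes lower and 1788 higher). There the member median was 0.39, and 2 of the 15 further synthesis genes were called higher, beside 1788 of all 17345 tested genes. Srebf2, Sqle, Lss, Cyp51 and Insig1 turned positive in that fit (0.39, 0.15, 0.36, 0.42 and 0.36). Without the replicate block Srebf2 was 0.0042 and Cyp51 0.024, with 0 members called. Cyp51, close to 0, was also positive with DESeq2 (0.00043), voom (0.014) and at least 10 counts in every library (0.00091). With no filter on low counts, 1 member, Cyp51, differed between mice (adjusted p = 0.0413, edgeR's quasi-likelihood test), where 1106 of 24591 genes did. With each mouse left out in turn, the member median ran from -0.03 to 0.063, Srebf2 from -0.23 to 0.11, Cyp51 from -0.051 to 0.063, Dhcr7 from -0.023 to 0.14 and Insig1 from -0.13 to 0.065, and counts of members differing between mice stayed at 0. Without mouse 3, 268 genes passed by adjusted p, 0 of them members. The cause of these moves was not tested. Tested members had 195 reads or more in each library, and how much of their spread is counting error was not tested.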

Other observations

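Genes for cholesterol storage, efflux and oxysterol sensing and genes for fatty acid synthesis, which SREBP1 controls, were listed for comparison. Of 9 storage and efflux genes, 0 passed the study's thresholds and 0 had an unadjusted p under 0.05 (edgeR), with log2 fold changes from -0.18 for Apoe, a carrier of lipoprotein cholesterol (standard error 0.13), to 0.20 for Abcg1, a cholesterol exporter (standard error 0.16). All 7 fatty acid synthesis genes had negative fitted values, from -0.10 for Acss2, which activates acetate (standard error 0.11), to -0.0063 for Acaca, acetyl-CoA carboxylase (standard error 0.15), with 0 called and a median of -0.05. The sign was not shared by the hosts, since 7, 0 and 7 of the 7 genes were lower on the mutant side in mice 1, 2 and 3. Acss2 was 2.83-fold higher in mouse 3 than the mean of mice 1 and 2 and differed between mice after adjustment (adjusted p = 0.0470, edgeR's quasi-likelihood test, Benjamini-Hochberg). Skeletal muscle genes summed to 10705 and 10564 CPM in the Adamts18-/- glands of mice 1 and 2 and to 280 and 818 CPM in their WT glands, but to 1830 against 2704 CPM in mouse 3.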
